A study of Arabidopsis thaliana with 4 samples.

Results

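The Aux/IAA and ARF genes encode the repressors and the transcription factors of the nuclear auxin response. They were examined here for chromatin marked by RGA, a DELLA repressor of gibberellin (GA) signalling, in Arabidopsis thaliana seedlings. The members were 29 Aux/IAA and 15 ARF genes listed by locus, 44 of 27444 coding genes. The study used ChIP-seq, in which fixed chromatin is pulled down with an antibody, here beads against the FLAG tag, and its DNA is sequenced; the seedlings had grown for 10 days under constant light. A line with FLAG-tagged wild-type RGA in sly1 dP was set beside a line with FLAG-tagged mutant RGA, called rga11, also in sly1 dP. The control of the FLAG-RGA line is labelled RGA sly1 dQ and that of the FLAG-rga11 line sly1 dP. All 4 groups carry sly1, had 1 library each and came from whole seedlings; the labels explain neither dP and dQ nor the constructs. By its title the study concerns histone H2A binding by the PFYRE subdomain of DELLA, and the comparison of the lines asks which sites the mutant protein still marked. In whole seedlings a site marked in few cells and a site marked weakly in many cannot be told apart.

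Auxin is perceived by TIR1/AFB F-box proteins, which bind Aux/IAA proteins through a short degron and send them for degradation. While present, Aux/IAA proteins bind ARF factors at auxin response elements and recruit TOPLESS corepressors, and many Aux/IAA genes are themselves induced by auxin, which makes a feedback loop. ARF proteins fall into class A, known as activators, and classes B and C, known mostly as repressors. DELLA proteins have no DNA-binding domain of their own and reach chromatin through other transcription factors; RGA is known to bind ARF6.

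FLAG-RGA had 6116 peaks and FLAG-rga11 had 505, with the fold, p and q of each peak as the authors deposited them. The control of the mutant list goes by another name in the deposited peaks than in the labels; its identity is unsettled, and every mutant fold rests on it. A gene was called marked if it held a peak summit or had one no more than 1 kb from an end. Solving fold and p for coverage put the genome background at 14.5 fragments in the wild-type call. In the mutant call ChIP coverage was scaled by 0.470, and the background was 7.21 in scaled units. Before scaling the mean ChIP coverage of the mutant was 15.3 fragments, so the lower value does not mean a shallower ChIP library. A site at the background of its call needed 33 ChIP fragments to enter the wild-type list and 49 to enter the mutant list. Folds are the authors' values against the control of each line, and positions are those of TAIR10.

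FLAG-RGA marked 18 of the 44 genes (40.9%), where 23.2% of all coding genes were marked. Among the members the ARF genes had the higher share, 8 of 15 (53.3%), and the Aux/IAA genes 10 of 29 (34.5%). The 15 are not the whole ARF family: 7 further ARF genes, counted with the other pathway genes, had 0 marked. The 53.3% and the shares by ARF class therefore hold for the listed ARF genes only. Within the Aux/IAA family 4 of 4 genes were marked in the clade of IAA1 to IAA4 and 3 of 4 in that of IAA7, IAA14, IAA16 and IAA17. The clade of IAA19 had 1 of 3 marked, that of IAA27 1 of 3 and that of IAA11 1 of 2, and the remaining clades and single genes had none. These counts describe 1 library with 1 to 7 genes in each clade or class, and differences between clades were not tested. ARF genes are long: all 15 lie in the longest 25% of coding genes, of which 26.9% were marked. The Aux/IAA genes are shorter, and 17 of the 44 members lie in the longest 25%; 2 of these 17 are Aux/IAA genes, and neither was marked.

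**Figure D1:**
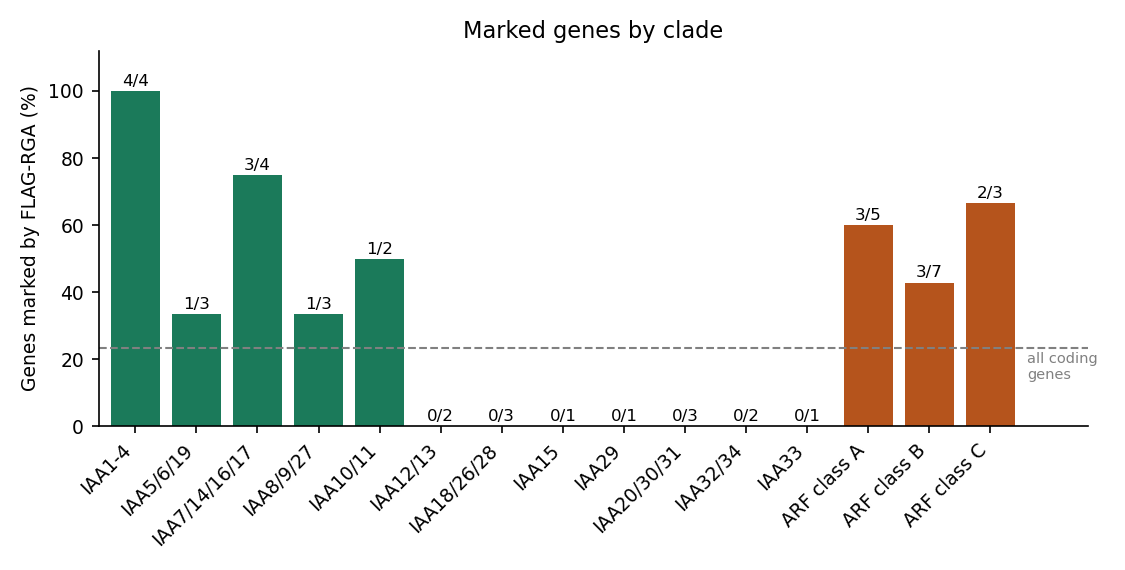
Share of genes marked by FLAG-RGA (y axis, percent) in each Aux/IAA clade (green) and ARF class (orange), with the number marked over the number of genes above each bar; the dashed line is the 23.2% of all coding genes. All 4 genes of the IAA1 to IAA4 clade were marked, and 7 clades or single genes had no marked gene. The ARF classes hold the listed members only, and the further ARF genes, with none marked, are not shown.

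The member peak with the highest fold lay at IAA16 (AT3G04730), in the clade of canonical Aux/IAA repressors that also holds IAA7, IAA14 and IAA17. It ran from 1291096 to 1291260 on chromosome 3, with its summit 290 bp outside the gene and 70 ChIP fragments over it (54.6 to 88.4). Its fold was 4.46 (3.49 to 5.62), rank 160 of 6116 in the list. A second IAA16 summit lay inside the gene, 139 bp from the same end, with a fold of 2.36.

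IAA7 (AT3G23050), known as AXR2 from a dominant allele that makes dwarf, auxin-resistant plants, had 1 peak at 8196861 to 8197077 on chromosome 3. The summit lay inside the gene 184 bp from an end, with 63 fragments (48.4 to 80.6) and a fold of 4.14 (3.2 to 5.28). Control signal there was at the genome background. IAA17 (AT1G04250), known as AXR3, had a weaker peak inside the gene at 1136377 to 1136525 on chromosome 1, with 40 fragments (28.6 to 54.5) and a fold of 2.45 (1.77 to 3.31). The intervals of IAA7 and IAA16 overlap widely, so their order is within counting error, and that of IAA17 touches the lower part of the IAA7 interval. IAA14 (AT4G14550), known as SLR for its part in lateral root formation, was the unmarked gene of the clade, with the nearest summit 2938 bp away.

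The IAA1 to IAA4 clade, short genes known as early auxin-induced genes, was marked throughout under the rule as reported. IAA4 was lost at a −log10 q limit of 5. IAA1 and IAA4 were both lost at a limit of 10 and with summits inside the gene only. IAA3 (AT1G04240), known as SHY2 and for its part in root meristem size, had a pair of summits at its high-coordinate end. The outer peak, 1130152 to 1130385 on chromosome 1, had 106 fragments (86.8 to 128) and a fold of 3.75 (3.08 to 4.53), 595 bp from the gene. The inner one, 1129480 to 1129709, had 94 fragments (76.0 to 115) and a fold of 2.92 (2.37 to 3.57). IAA2 (AT3G23030) had 1 peak inside the gene, 8181816 to 8182020 on chromosome 3, with 97 fragments (78.7 to 118) and a fold of 3.21 (2.61 to 3.91). IAA4 (AT5G43700, 2.43, 178 bp outside) and IAA1 (AT4G14560, 2.24, 88 bp outside) had lower folds, with 42 and 52 fragments. The clade thus spanned folds from 2.24 to 3.75, and the intervals of its lowest and highest members do not overlap.

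Outside these clades IAA19, IAA27 and IAA11 were the marked Aux/IAA genes. IAA19 (AT3G15540), known as MSG2 and for its part in hypocotyl bending with ARF7, had the member peak with the second highest fold. The peak ran from 5263795 to 5264023 on chromosome 3, with 84 fragments (67.0 to 104). Its fold was 4.32 (3.45 to 5.33), and that interval overlaps the interval of IAA16 widely. Its summit lay 139 bp outside the gene, and a second summit lay inside it with a fold of 2.19. IAA27 (AT4G29080), a relative of IAA8 and IAA9, had a peak 867 bp outside the gene at 14326158 to 14326306 on chromosome 4, with 50 fragments (37.1 to 65.9) and a fold of 3.3 (2.47 to 4.33). The summit at IAA11 (AT4G28640, fold 2.24), 751 bp from the gene, lay inside the neighbouring gene AT4G28650, which is therefore the gene nearest to it.

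The other 19 Aux/IAA genes had no summit within 1 kb. Among them were IAA5 and IAA6, the relatives of IAA19, whose nearest summits lay 15793 and 8817 bp away. IAA8 (7514 bp), IAA9 (3922 bp) and IAA10 (8437 bp) were unmarked beside marked relatives. IAA12, the BODENLOS partner of ARF5 in the embryo (3793 bp), and IAA13 (2852 bp) were unmarked, as were IAA18 (4481 bp), IAA26 (2505 bp) and IAA28 (16133 bp). The non-canonical genes IAA20 and IAA30 to IAA34, whose proteins lack the degron or hold it incompletely, had 0 of 6 marked. Their nearest summits lay from 1371 bp (IAA20) to 13488 bp (IAA34) away. IAA15 (1385 bp) and IAA29 (2135 bp), each taken alone, were unmarked too. IAA15 and IAA20 lay just beyond the 1 kb limit, and IAA27, at 867 bp, and IAA11, at 751 bp, just within it.

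All 3 ARF classes had marked genes, and their highest folds per gene ran from 1.80 to 2.89, against 2.24 to 4.46 among the marked Aux/IAA genes. Class A, the activators, had 3 of 5 marked. The strongest was ARF6 (AT1G30330), a factor for hypocotyl growth and flower maturation, with a peak at 10685687 to 10685855 on chromosome 1. Its summit lay 27 bp outside the gene, with 53 fragments (39.7 to 69.3) and a fold of 2.89 (2.18 to 3.76). ARF8 (AT5G37020), its closest relative, had a fold of 1.80 from a summit 20 bp inside the gene. ARF19 (AT1G19220), a factor for lateral roots, had summits with folds of 1.57 outside and 1.93 inside the gene; the outer one lay inside the neighbour AT1G19210. Their class A relatives ARF7 and ARF5 were unmarked, with the nearest summits 2267 and 8328 bp away.

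Class B had 3 of the 7 listed genes marked. The 7 further ARF genes, with 0 marked, were not placed in a class here, so this share may not hold for the whole class. ARF3 (AT2G33860), known as ETTIN for its part in carpel and leaf polarity, had an outer peak at 14324819 to 14325025 on chromosome 2, with 82 fragments (65.2 to 102) and a fold of 2.56 (2.04 to 3.16). That summit lay inside the neighbour AT2G33855; a second ARF3 summit lay inside ARF3 itself, with a fold of 2.41. ARF2 (AT5G62000), a repressor known for limiting organ size, had a peak 508 bp outside the gene at 24909551 to 24909820 on chromosome 5, with 87 fragments (69.7 to 107) and a fold of 2.55 (2.05 to 3.14). A second ARF2 summit lay inside the gene, 74 bp from the other end, with a fold of 2.04. ARF9 (AT4G23980) had 1 summit, 758 bp outside (2.4). ARF18 (1421 bp), ARF4 (3343 bp), ARF11 (3560 bp) and ARF1 (50415 bp) were unmarked.

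Class C, whose transcripts are known targets of miR160, had 2 of 3 marked. ARF10 (AT2G28350) had a peak inside the gene with 100 fragments and a fold of 2.44. ARF16 (AT4G30080) had one with 37 fragments and a fold of 2.17, whose −log10 q of 3.28 was the lowest of the wild-type member peaks. ARF17 had no summit nearer than 21144 bp. Across both families the median of the highest fold per marked gene was 3.26 for Aux/IAA and 2.42 for ARF genes, against 2.37 for all marked coding genes. Class A and class C medians of 1.93 and 2.31 lay below that of all marked coding genes.

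**Figure D2:**
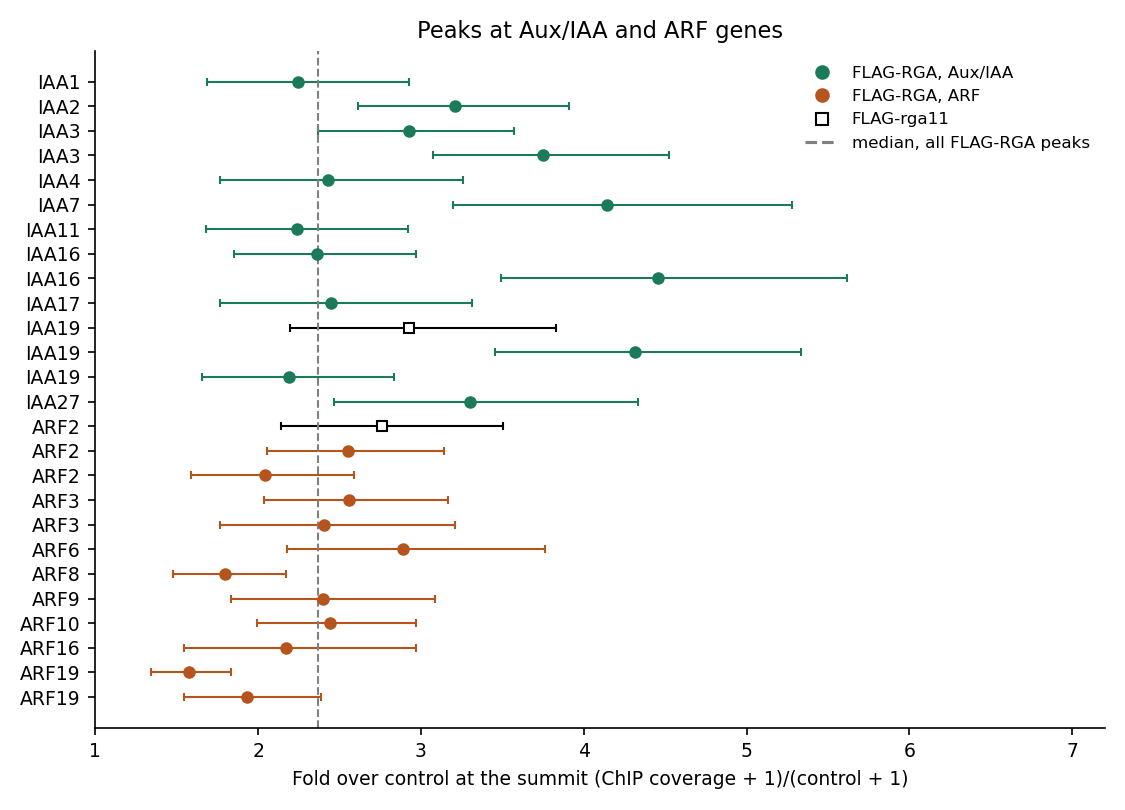
Fold over control (x axis) of each peak at a marked Aux/IAA or ARF gene, with filled circles for FLAG-RGA, open squares for FLAG-rga11, bars for the 95% counting interval of the ChIP fragments with the control held fixed, and a dashed line at the median of all FLAG-RGA peaks (2.37). IAA16, IAA19 and IAA7 stand highest, and ARF8 and ARF19 lowest.

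Of the 24 member summits 12 lay inside the gene and 12 outside. Of those outside 3 lay inside another coding gene, so 62.5% of member summits were inside some coding gene. The share of all wild-type summits was 65.3%. The 2 sets are unlike, since member summits were chosen to lie within 1 kb of a gene and the whole list was not. Inside summits were mostly near an end, with 9 of 12 within 500 bp. The same count over all coding genes was not made. In a short gene such as IAA2 (1.45 kb) most positions lie that near an end. The inside summits of ARF10, ARF3 and ARF16 lay deeper, at 575, 626 and 1588 bp from the nearest end. Outside summits ranged from 27 bp at ARF6 to 867 bp at IAA27. Of the 18 marked members 6 had a pair of summits (33.3%), namely IAA3, IAA16, IAA19, ARF2, ARF3 and ARF19, where 17.2% of all marked coding genes had 2 or more. At IAA3, IAA16, IAA19 and ARF19 both summits lay at the same end of the gene, and at ARF2 and ARF3 they lay at opposite ends. Gene strand was not used, so starts were not told apart from ends.

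**Figure D3:**
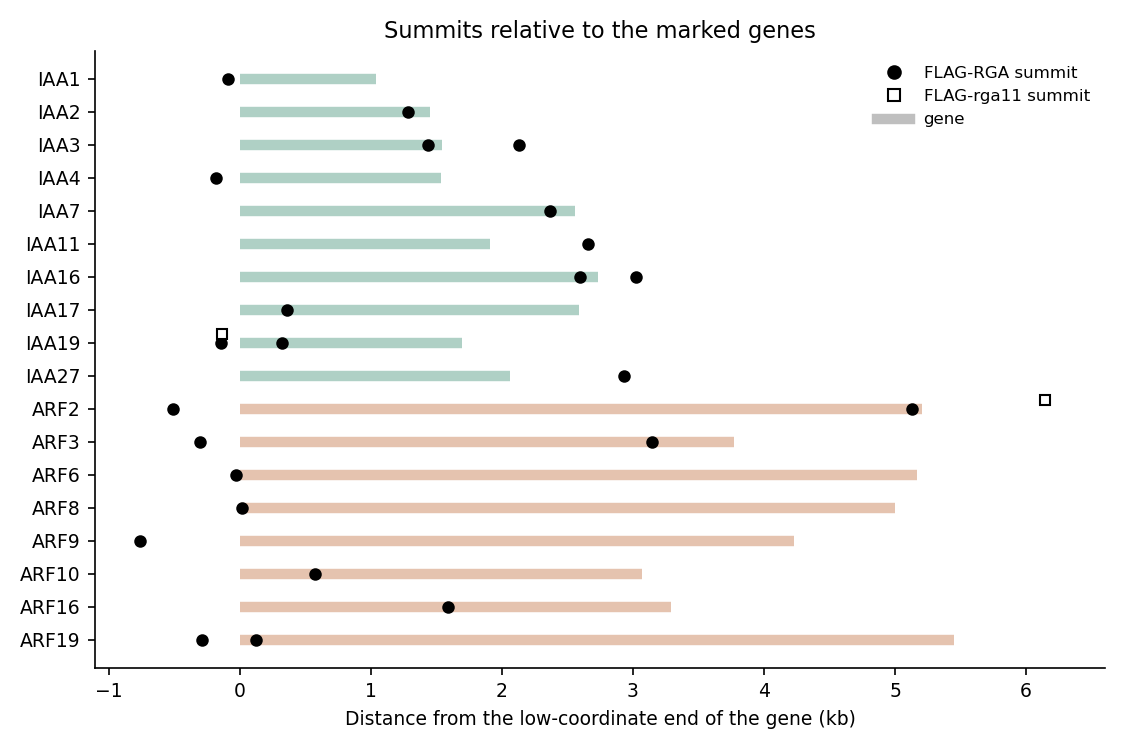
Position of each summit at the 18 marked genes, in kb from the end of the gene with the lower coordinate (x axis), with genes as bars (green Aux/IAA, orange ARF), FLAG-RGA summits as filled circles and FLAG-rga11 summits as open squares. Summits sit at or near 1 end of most genes, ARF16 has its summit near the middle, and at IAA19 the summits of both lines fall 7 bp apart.

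Control signal differed among the members. Its median at member summits was 1.67 times the genome background, close to the 1.63 of all wild-type peaks, with a range from 1.00 at IAA7 and IAA27 to 7.01 at the outer ARF19 summit. ARF summits had a median of 2.2 and Aux/IAA summits 1.57. The lowest folds were at high control: ARF19 had 160 fragments over its outer summit and ARF8, with control at 4.08 times background, had 107, more than IAA16 or IAA7. The part of control signal in the lower ARF folds was not tested. Without the peaks where control exceeded 5 times background, 18 members and 22% of coding genes were still marked. Among member summits the outer ARF19 one alone exceeded that limit, and ARF19 had another summit, so the member count could not change.

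**Figure D4:**
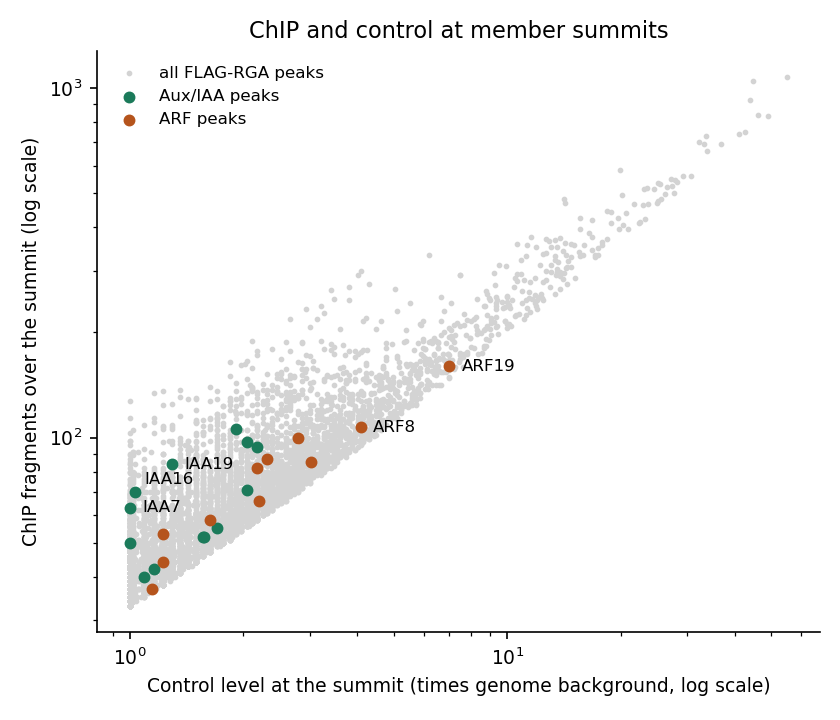
ChIP fragments over the summit (y axis, log scale) against control level in multiples of the genome background (x axis, log scale) for all FLAG-RGA peaks (grey) and for the 13 Aux/IAA (green) and 11 ARF peaks (orange). IAA7, IAA16 and IAA19 have control at 1.00 to 1.29 times background and 63 to 84 fragments, while ARF8 and ARF19 lie at the lower edge of the cloud.

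The mutant protein marked 2 of the 44 genes (4.55%), IAA19 and ARF2, where 1.79% of coding genes were marked. Both were also marked in the wild type, so 2 of the 18 wild-type targets among the members (11.1%) were marked in both lists, against 5.67% of all wild-type targets; over all coding genes 1.32% were marked in both. The mutant peak at IAA19 ran from 5263833 to 5263980 on chromosome 3 and lay entirely within the wild-type peak, with summits 7 bp apart. It had 49 fragments (36.3 to 64.8), the fewest that a site at genome background could have in that list, and a fold of 2.93 (2.2 to 3.83). Its control level was at background, and its −log10 q was 3.13, where the lowest of the list was 3.01. The second IAA19 summit of the wild type, inside the gene, had no mutant counterpart.

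The mutant peak at ARF2 was at another place than either wild-type peak there. It ran from 24916264 to 24916411 on chromosome 5, with its summit 941 bp outside ARF2 and inside the neighbouring heat shock factor gene HSFB2A (AT5G62020). It had 63 fragments (48.4 to 80.6), a fold of 2.76 (2.14 to 3.51) and a −log10 q of 3.42. It overlapped no wild-type peak. IAA19 was therefore the 1 member at which the peaks of both lines overlapped, out of 24 member peaks in the wild type. Over the whole wild-type list 4.73% of peaks overlapped a mutant peak.

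The mutant marks were sensitive to the rule: IAA19 was lost at a higher q limit and ARF2 also with a narrower flank. With summits inside the gene only, 0 members and 1.22% of coding genes were marked by FLAG-rga11, and at −log10 q limits of 5 and 10 there were 0 members against 1.04% and 0.339%. With a 500 bp flank or with the nearest gene alone IAA19 was the 1 member marked, against 1.41% and 1.35% of coding genes.

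The other 42 members had no mutant summit within 1 kb. Of the strongest wild-type targets, IAA16 had its nearest mutant summit 26857 bp away, IAA7 71263 bp and IAA3 340726 bp. A site at background needed a higher fold in the mutant call than in the wild-type call (2.93 against 2.2), so wild-type coverage and control were scaled to the background of the mutant call and peaks under its lowest −log10 p of 6.03 were dropped. That left 10 members marked (22.7%), IAA2, IAA3, IAA7, IAA16, IAA19, IAA27, ARF2, ARF3, ARF6 and ARF10, against 7.97% of coding genes. Of these 10, 2 were in the mutant list (20.0%), and of the 2188 coding genes left in the same way 220 were (10.1%). The other 8 wild-type targets, with folds from 1.80 to 2.45, fell below what the mutant call could list. The scaling was chosen after the files had been seen and does not redraw the counts.

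The share of members marked in the wild type was above that of coding genes under every rule run. With peaks of −log10 q 10 and above, 9 members (20.5%) and 6.54% of coding genes were marked, and the Aux/IAA and ARF shares were then 20.7% and 20.0%. With summits inside the gene only, the shares were 27.3% and 13.2%, and with each summit given to its nearest gene alone they were 38.6% and 16.6%. A −log10 q limit of 5 gave 34.1% and 16.4%, a 500 bp flank 34.1% and 18.7%, and the peak interval in place of the summit 40.9% and 24.2%. Leaving out summits inside another coding gene gave 38.6% and 17.9%. A flank of 2 kb added IAA15, IAA20 and ARF18.

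**Figure D5:**
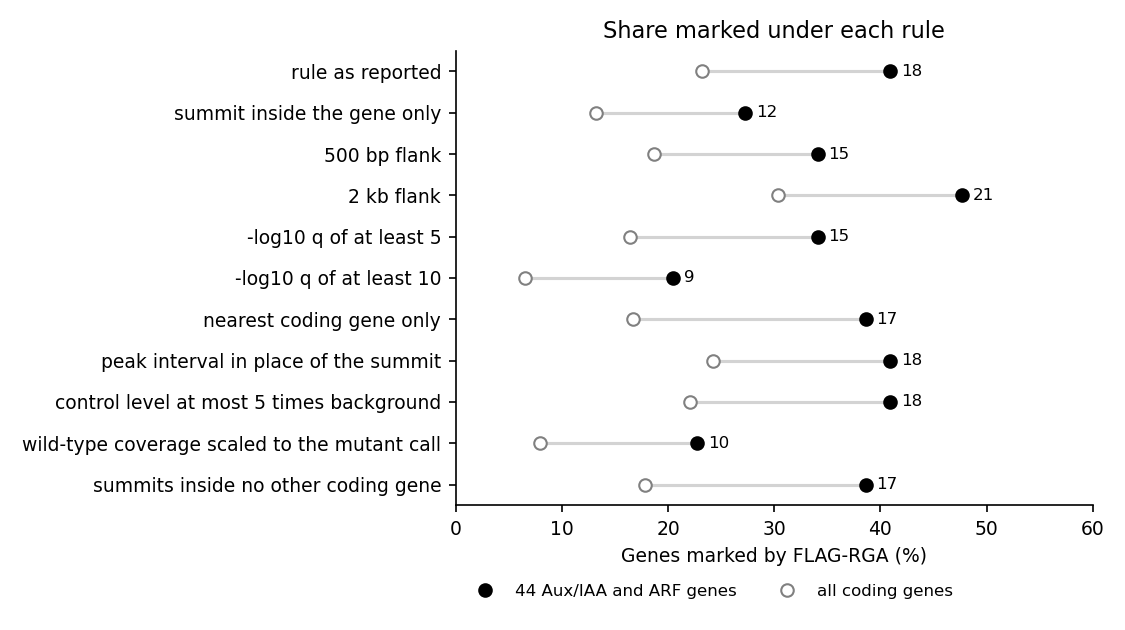
Share of the 44 genes (filled, with the count beside it) and of all coding genes (open) marked by FLAG-RGA, in percent on the x axis, under the rule as reported and each alternative. The members lie above the coding genes in every row, from 20.5% against 6.54% at a −log10 q of 10 or more to 47.7% against 30.3% with a 2 kb flank.

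Other genes of the auxin pathway, outside the 44 members, had 15 of 30 marked in the wild type (coding genes 23.2%). These 30 include 7 ARF genes that were not among the members. All 5 corepressor genes were marked, led by TPL (TOPLESS, AT1G15750) with a fold of 3.99 and TPR3 with 3.11. Of the auxin receptor genes 3 of 6 were marked, with AFB2 (2.61) and TIR1 (2.58) highest. Among GH3 genes, whose enzymes conjugate auxin to amino acids, 5 of 8 were marked, led by GH3.3 (4.03) and GH3.6 (2.46). Of the influx carrier genes LAX1 (3.56) and AUX1 (2.80) were marked and LAX2 and LAX3 were not. The 7 further ARF genes examined, ARF12 to ARF15 and ARF20 to ARF22 on chromosome 1, had none marked, with nearest summits from 3911 to 31125 bp away. In the mutant list 2 of the 30 genes were marked (6.67%, coding genes 1.79%), TPR2 (3.95) and LAX1 (2.41), and both peaks overlapped a wild-type peak, with summits 4 and 14 bp apart.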

How the data were processed

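Seedlings were fixed with 1% formaldehyde for 20 min and the chromatin was incubated with FLAG-M2 agarose beads for 2 h, per the labels' protocols. Trimmomatic (version 0.39), Bowtie2 (version 2.4.5), MACS2 (version 2.2.7.1), deepTools (version 3.1.3) and the TAIR10 build are listed in the submitters' processing notes. The fold of a peak is the ratio of ChIP coverage to control at the summit that the authors' peak caller gave. The −log10 p and −log10 q are also the authors' deposited values, and the deposited score is 10 times the −log10 q and was not used further. Peak numbers ran to 7873 and 778, above the 6116 and 505 peaks listed, so part of the called peaks is not analysed here; no source used here says how the lists were cleaned.

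The genes were taken from RefSeq on TAIR10.1, used for names, neighbours and ranks by length, and all 44 members and 30 other pathway genes matched by locus and name. Distances rest on the 5 chromosomes having the same coordinates in TAIR10 and TAIR10.1. Strand and sequence were not used here, so the planned description of starts, motifs and proteins was not made. ChIP fragments and control level at each summit were solved from fold and p with a pseudocount of 1. This gave whole fragments, within 0.05, at 6115 of 6116 wild-type peaks and at all 505 mutant peaks. Of 400 peaks simulated with the scaling of each call, 99.75% were recovered in either call. Intervals on fragments are exact 95% Poisson intervals of the ChIP count; those on a fold carry that interval over with the control held fixed. They cover counting error only.

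Groups were read from the titles. With 1 library a group no test was made, and counts of marked members are read against the share of all coding genes marked by the same rule. The members, clades and pathway list were chosen with earlier results of these data known. Values in full were given for members with a mutant peak and for the 10 with the highest wild-type fold; other members are given by range, examples and distance, and other pathway genes by the 2 highest folds of each role. The alternatives changed the flank, the peak threshold, the assignment, the control limit and the overlap that counts as shared. Python 3.11.15, pandas 2.3.3, numpy 2.4.6, scipy 1.17.1 and matplotlib 3.10.9 were used.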

Additional observations from a re-analysis of the deposited data

How the results depend on the processing

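No paired analysis was possible because each group had 1 library. The 18 wild-type members fell to 9 with peaks of −log10 q 10 and above and to 10 with coverage scaled to the mutant call. Aux/IAA genes went from 10 to 6 with summits inside the gene only, 6 at that higher q limit and 6 with scaled coverage. The clade counts moved too: IAA1 and IAA4 were lost in each of these cases, and IAA4 and IAA17 at a −log10 q limit of 5. ARF genes went from 8 to 3 at that limit and 4 with scaled coverage. The mutant counts were small and unsteady. Of 2 members, and of the 2 marked in both lists, 0 were left with summits inside the gene only, 0 at a −log10 q limit of 5 and 0 at 10; 1 was left with a 500 bp flank and 1 with the nearest gene only, in each case IAA19. Both family counts of 1 went to 0 with summits inside the gene only and at both q thresholds, and that of ARF genes to 0 with a 500 bp flank and 0 with the nearest gene only. The median fold and the count of members with overlapping peaks kept their values within the limits set. The order of the medians did not hold: members had 2.50 against 2.37 for all marked coding genes under the rule as reported. At a −log10 q limit of 5 they had 2.56 against 2.59. The cause of these changes was not tested, beyond fewer peaks or a narrower window by construction. Absence of a mutant peak was not told apart from too few fragments to call one.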

Other observations

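Several unmarked members had a strong wild-type summit a few kilobases away, outside the 1 kb limit. Of the 26 unmarked members 17 had a summit of any fold within 5 kb. The same count over unmarked coding genes was not made, so nothing here sets the members apart. The 6 given here were chosen after their values were seen. The nearest summit to ARF4, 3343 bp away and 706 bp from AT5G60460, had a fold of 5.89 and 90 fragments. That nearest to ARF11, 3560 bp away and 699 bp from AT2G46520, had a fold of 5.07 and 79 fragments. The one nearest to ARF7, 2267 bp away, had a fold of 4.34 and lay within 1 kb of no coding gene, as did that nearest to IAA18, 4481 bp away with a fold of 4.14. The summit nearest to IAA30 lay 4501 bp away and 476 bp from PIL2, with a fold of 4.30 and 109 fragments. For IAA12 the nearest summit (4.12) lay 3793 bp away and 253 bp from AT1G04540. Control signal at these 6 summits was 1.00 to 1.70 times the genome background, and 4 of these folds, at ARF4, ARF11, ARF7 and IAA30, were above the 4.14 of IAA7. Distance alone assigned these summits, so which gene each belongs to was not tested.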
